A study of Mus musculus with 8 samples.

Results

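The 57 probes described here were those at least 2-fold brighter in WT Foxp3+ than in WT Foxp3- thymocytes and close to equal between KO and WT cells of each fraction. They were chosen from 14942 probes of the authors' processed table, on the log2 scale and from group means. The WT Foxp3+ minus WT Foxp3- difference had to be at least 1, and the KO minus WT difference had to lie within 0.3 of 0 in Foxp3+ and in Foxp3- cells. A difference of 1 on this scale is a 2-fold difference in signal. Of 326 probes with a WT difference of at least 1, these were 17.5%, and they name 50 genes, with 3 probes that have no gene in the annotation used.

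The study took RNA from mouse thymocytes sorted as CD4+Foxp3+ or as CD4 single-positive Foxp3- (CD4SPFoxp3- in the labels). KO cells came from E2Af/fHEBf/f/ER-Cre/Foxp3KI mice, in which the alleles of E2A and HEB are flanked by sites for Cre recombinase, and WT cells came from WT Foxp3KI mice. All 4 groups thus carried the Foxp3KI allele. They were KO Foxp3+, WT Foxp3+, KO Foxp3- and WT Foxp3- cells, with 2 arrays in each and 8 arrays in all. ER-Cre is switched on by tamoxifen and is not tied to one cell type by the labels. Floxed or WT mice were given 3 mg tamoxifen in corn oil by mouth, 4 times within 10 days. The labels do not say that the 2 arrays of a group came from separate animals, so the spread between them may be technical, and their number limits the precision of every value below.

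Foxp3 is the transcription factor that defines regulatory T cells, which restrain other T cells and arise in the thymus among CD4 single-positive cells. Such cells carry the alpha chain of the interleukin 2 receptor and several receptors of the TNF receptor family, and depend on interleukin 2 signals through STAT5. E2A and HEB are E proteins, basic helix-loop-helix factors that bind the short DNA motif CANNTG, the E-box, and act through T cell development. The rule thus picks probes brighter in WT Foxp3+ cells whose level in each fraction was close between KO and WT. Together its limits also keep the difference between fractions in KO cells near that in WT cells, so the KO difference is largely set by the rule.

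Between 11462 and 12540 probes were detected per array (detection p under 0.05), and replicates correlated across probes with r = 0.988 for KO Foxp3+, 0.995 for WT Foxp3+, 0.994 for KO Foxp3- and 0.996 for WT Foxp3- cells. The Tcf12 probe, for the gene of HEB, read 7.5 and 7.40 on KO Foxp3+, 7.97 and 8.09 on WT Foxp3+, 7.72 and 7.66 on KO Foxp3- and 8.22 and 8.15 on WT Foxp3- arrays. It was thus lower on every KO array of both fractions, although its place relative to the deleted part is not known here, so it is only a partial check of the genotype. Tcf3, the gene of E2A, was not analysed here. One Foxp3 probe read 9.29 and 9.88 on KO Foxp3+ arrays and 9.90 and 10.03 on WT Foxp3+ arrays, and was not well above background on any of the 4 Foxp3- arrays, where it read 6.76 to 6.86. A second Foxp3 probe was detected on 1 array of 8, a KO Foxp3- one, and read 6.80 to 6.94 throughout, so it shows nothing of the fractions. By the first probe the sorted fractions differed in Foxp3 as labelled, and Foxp3 below means that probe. All 6 regulatory T cell markers tested passed limma's test as higher in Foxp3+ cells of both genotypes. Over all probes tested 12.1% did in KO and 14.7% in WT cells. Of the 6 markers, Il2ra and Tnfrsf18 are members, chosen as higher in WT Foxp3+ cells on these same arrays.

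The rule fixed the pattern of the members, so their differences between groups are given as a description. The difference between Foxp3+ and Foxp3- cells had a median of 1.24 in KO (range 0.61 to 3.17) and of 1.24 in WT cells (range 1.01 to 3.26). In WT cells 45 members lay below 1.5, 8 between 1.5 and 2, and 4 at 2 or more: Il2ra, Cd74, C1qb and Sdc4. The KO difference was smaller than the WT difference for 39 members and larger for 18. These are differences of the authors' values as the rule takes them, and where a probe was undetected on both Foxp3- arrays of a genotype its fold is given as a bound below. As a share of the WT difference it ran from 53.1% to 137.6%, with a median of 90.6%. On all 57 probes the 4 Foxp3+ arrays were above the 4 Foxp3- arrays, a pattern met by 12.1% of the 14942 probes. The gap between the lowest Foxp3+ and the highest Foxp3- array had a median of 0.98 and ran from 0.37 to 3.02. The heat map of all members shows this gap as the step in the middle of each row.

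**Figure D1:**
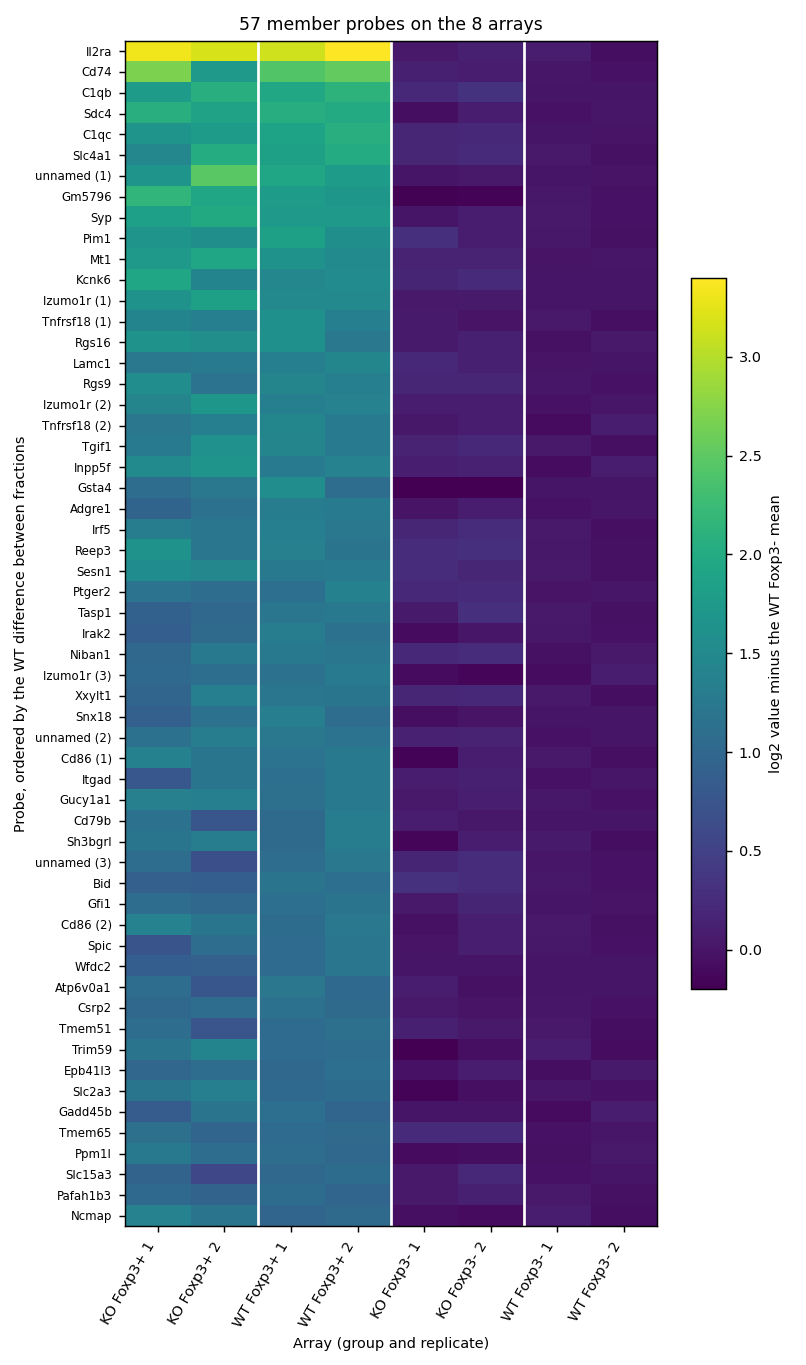
Each row is a member probe and each column an array, ordered KO Foxp3+, WT Foxp3+, KO Foxp3- and WT Foxp3-, and colour gives the log2 value minus the mean of the 2 WT Foxp3- arrays. Il2ra at the top has the largest WT difference (3.26) and Ncmap at the bottom the smallest (1.01). On every row the 4 left columns are above the 4 right columns.

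Promoters are shown for 4 members of the regulatory T cell and interleukin 2 gene lists, because E proteins act through E-boxes. Each runs from 250 bases before to 50 bases after the start of the gene, from RefSeq on GRCm38.p6, 5′ to 3′ on the strand of the gene, with CANNTG in capitals. The window was chr2:11642542-11642841 (+) for Il2ra, chr4:156026072-156026371 (+) for Tnfrsf18, chr9:14903718-14904017 (-) for Izumo1r and chr5:107725756-107726055 (-) for Gfi1, whose first listed start of 2 was used.
Il2ra: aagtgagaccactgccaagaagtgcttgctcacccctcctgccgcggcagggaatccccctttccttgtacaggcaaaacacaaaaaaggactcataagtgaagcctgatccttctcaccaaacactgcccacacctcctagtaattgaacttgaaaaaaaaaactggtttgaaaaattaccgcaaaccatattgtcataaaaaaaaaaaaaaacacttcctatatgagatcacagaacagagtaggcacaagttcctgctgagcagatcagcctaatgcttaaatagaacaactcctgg
Tnfrsf18: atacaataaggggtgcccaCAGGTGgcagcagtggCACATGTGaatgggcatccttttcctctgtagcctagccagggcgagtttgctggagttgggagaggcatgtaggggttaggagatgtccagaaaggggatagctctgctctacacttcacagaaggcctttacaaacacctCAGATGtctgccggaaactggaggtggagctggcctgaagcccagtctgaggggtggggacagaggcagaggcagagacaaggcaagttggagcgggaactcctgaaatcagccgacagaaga
Izumo1r: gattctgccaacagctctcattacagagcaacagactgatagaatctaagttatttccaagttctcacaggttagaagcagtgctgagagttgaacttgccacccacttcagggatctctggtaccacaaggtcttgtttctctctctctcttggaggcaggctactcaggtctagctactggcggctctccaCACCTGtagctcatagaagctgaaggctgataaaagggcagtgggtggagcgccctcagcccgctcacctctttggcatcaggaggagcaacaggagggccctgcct
Gfi1: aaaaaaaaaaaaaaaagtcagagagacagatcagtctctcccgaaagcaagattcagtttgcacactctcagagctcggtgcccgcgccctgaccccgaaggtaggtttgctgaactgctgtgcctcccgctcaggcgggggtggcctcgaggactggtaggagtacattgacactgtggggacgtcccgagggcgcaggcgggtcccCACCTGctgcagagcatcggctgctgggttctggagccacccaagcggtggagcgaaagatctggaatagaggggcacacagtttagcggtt
The window of Tnfrsf18 held 4 matches to CANNTG, of which a pair share bases in CACATGTG. Those of Izumo1r and Gfi1 held 1 match each, CACCTG in both. The window of Il2ra, the member with the largest difference between fractions, held none, which says only that these letters are not in this window. Of the other members of these lists, whose windows are not shown, Rgs16 and Pim1 held 0 matches and Ptger2 held 3. CANNTG reads the same on both strands as a pattern, and 72.1% of the 27025 promoters in the table hold it. Only 34 of the 50 member genes have a promoter in that table, fewer than 80%, so a comparison of the members' share with other genes would be void and none is given. A match is a run of letters and not a measured binding site.

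Among surface receptors, Il2ra, the alpha chain of the interleukin 2 receptor, stood at the top of the list. It read 10.31 and 10.17 on KO Foxp3+ arrays, 10.13 and 10.38 on WT Foxp3+ arrays, 7.03 and 7.11 on KO Foxp3- arrays and 7.07 and 6.92 on WT Foxp3- arrays. The fractions were far apart and the genotypes interleaved, with a Foxp3+ over Foxp3- signal ratio of 8.99 in KO and 9.57 in WT cells. The KO minus WT difference was -0.01 in Foxp3+ and 0.08 in Foxp3- cells. After background correction the ratio between fractions was 27.9 in KO and 34.4 in WT cells.

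Tnfrsf18 encodes GITR, a costimulatory receptor of the TNF receptor family, and both of its probes were members. The first read 11.36 and 11.29 on KO Foxp3+, 11.55 and 11.29 on WT Foxp3+, 10.00 and 9.93 on KO Foxp3- and 9.98 and 9.89 on WT Foxp3- arrays. The second read 11.54 and 11.66 on KO Foxp3+, 11.76 and 11.60 on WT Foxp3+, 10.34 and 10.39 on KO Foxp3- and 10.22 and 10.40 on WT Foxp3- arrays. Tnfrsf18, like Il2ra, was detected on all 4 Foxp3- arrays, and its signal ratio between fractions was 2.56 and 2.36 in KO and 2.79 and 2.58 in WT cells by the 2 probes.

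All 3 probes of Izumo1r, folate receptor 4, a surface marker of regulatory T cells, were members. The probe with the largest difference read 9.85 and 10.05 on KO Foxp3+, 9.71 and 9.70 on WT Foxp3+, 8.25 and 8.27 on KO Foxp3- and 8.21 and 8.22 on WT Foxp3- arrays. The KO arrays were the higher ones in Foxp3+ cells by this probe, with a KO minus WT difference of 0.24. The other probes gave 0.20 and -0.16, so they did not share a direction between genotypes, while their differences between fractions were 1.5 and 1.18 in KO and 1.37 and 1.22 in WT cells.

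Ptger2, a receptor for prostaglandin E2, read 8.11 and 8.02 on KO Foxp3+, 8.06 and 8.32 on WT Foxp3+, 7.16 and 7.17 on KO Foxp3- and 6.93 and 6.96 on WT Foxp3- arrays. In Foxp3- cells both KO arrays were above both WT arrays. The difference between fractions was 0.90 in KO and 1.25 in WT cells. Cd86, a ligand of CD28 and CTLA-4 best known from antigen-presenting cells, had 2 member probes of 3. One read 9.38 and 9.20 on KO Foxp3+, 9.17 and 9.25 on WT Foxp3+, 7.84 and 8.09 on KO Foxp3- and 8.05 and 7.95 on WT Foxp3- arrays. The genotypes overlapped in both fractions for this probe.

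Signalling proteins and regulators of transcription made up a further group. Pim1, a serine/threonine kinase induced by cytokines through STAT5, read 8.58 and 8.52 on KO Foxp3+, 8.76 and 8.51 on WT Foxp3+, 7.22 and 7.01 on KO Foxp3- and 6.95 and 6.88 on WT Foxp3- arrays. It was detected on 1 of the 2 WT Foxp3- arrays, and both KO Foxp3- arrays were above both WT Foxp3- arrays. Gfi1, a zinc finger repressor of transcription, read 9.55 and 9.48 on KO Foxp3+, 9.58 and 9.64 on WT Foxp3+, 8.50 and 8.63 on KO Foxp3- and 8.47 and 8.45 on WT Foxp3- arrays. Its difference between fractions was 0.95 in KO and 1.15 in WT cells. Tgif1, a homeobox repressor that limits TGF-beta signalling, had differences of 1.27 in KO and 1.37 in WT cells.

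RGS proteins speed up the switching off of G proteins below chemokine and other receptors, and 2 of their genes were members. Rgs16 read 8.91 and 8.86 on KO Foxp3+, 8.88 and 8.52 on WT Foxp3+, 7.34 and 7.39 on KO Foxp3- and 7.24 and 7.32 on WT Foxp3- arrays. The genotypes overlapped in Foxp3+ cells, and the ratio between fractions was 2.87 in KO and 2.68 in WT cells. Rgs9 was not well above background on any Foxp3- array, so its fold is a bound: it was at least 2.25-fold higher in KO and at least 2.32-fold higher in WT Foxp3+ than in Foxp3- cells. The bound sets the Foxp3+ mean against the higher, per array, of the probe's own signal and the lowest signal among detected probes.

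**Figure D2:**
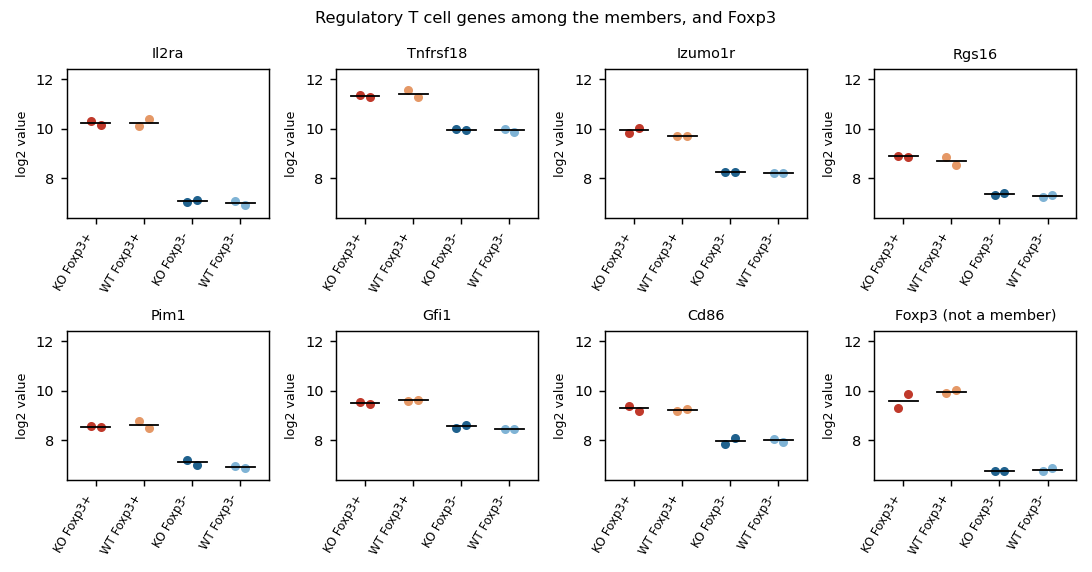
Points are the 2 arrays of each group and lines their mean, on the authors' log2 scale, for 7 members and for Foxp3. Foxp3 is not a member, with a KO minus WT difference of -0.38 in Foxp3+ cells. Groups run KO Foxp3+, WT Foxp3+, KO Foxp3-, WT Foxp3-. In every panel both Foxp3+ groups are above both Foxp3- groups, and KO and WT lie close together, with the KO Foxp3+ arrays of Foxp3 at 9.29 and 9.88 against 9.90 and 10.03 in WT.

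Genes of stress and cell survival included Bid, Gadd45b, Sesn1, Mt1 and Gsta4. Bid, a promoter of apoptosis of the BCL-2 family, read 8.89 and 8.86 on KO Foxp3+, 9.17 and 9.09 on WT Foxp3+, 8.30 and 8.23 on KO Foxp3- and 8.01 and 7.95 on WT Foxp3- arrays. No array of one genotype overlapped the other in either fraction, and the genotypes differed in opposite directions, by -0.26 in Foxp3+ and 0.28 in Foxp3- cells. Its difference between fractions was the smallest of the members in KO cells, 0.61 against 1.15 in WT cells.

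Gadd45b, a stress-induced gene also raised by antigen receptor signals, read 8.37 and 8.70 on KO Foxp3+, 8.63 and 8.50 on WT Foxp3+, 7.52 and 7.53 on KO Foxp3- and 7.43 and 7.60 on WT Foxp3- arrays, with the genotypes overlapping in both fractions. Sesn1, a p53 target that restrains the growth kinase mTOR, read 11.89 and 11.80 on KO Foxp3+, 11.59 and 11.63 on WT Foxp3+, 10.60 and 10.53 on KO Foxp3- and 10.39 and 10.30 on WT Foxp3- arrays. It was higher on all 4 KO arrays, by 0.23 in both fractions, so that the difference between fractions was 1.27 in both genotypes. Mt1, a metallothionein that binds metal ions, was detected on 1 of 2 KO Foxp3- arrays and not well above background on the WT Foxp3- arrays; its signal was 3.18-fold higher in KO and at least 2.72-fold higher in WT Foxp3+ cells. Gsta4, a glutathione transferase, had the lowest KO minus WT value of the members in Foxp3- cells, -0.25, with differences between fractions of 1.41 in KO and 1.32 in WT cells.

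Transporters, channels and membrane proteins formed another group. Slc2a3, a glucose transporter of activated lymphocytes, read 11.11 and 11.27 on KO Foxp3+, 10.94 and 10.98 on WT Foxp3+, 9.74 and 9.86 on KO Foxp3- and 9.93 and 9.89 on WT Foxp3- arrays. In Foxp3+ cells the KO arrays were the higher and in Foxp3- cells the lower, and the difference between fractions was 1.39 in KO and 1.05 in WT cells. Kcnk6, a potassium channel, had differences of 1.46 in KO and 1.5 in WT cells. Syp, synaptophysin, a membrane protein of synaptic vesicles, had 1.86 in KO and 1.75 in WT cells.

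Sdc4, the heparan sulfate proteoglycan syndecan 4, read 8.91 and 8.73 on KO Foxp3+, 8.90 and 8.86 on WT Foxp3+, 6.80 and 6.94 on KO Foxp3- and 6.84 and 6.88 on WT Foxp3- arrays. Of the Foxp3- arrays only 1, a KO one, detected it. Its signal was at least 3.9-fold higher in WT Foxp3+ than in WT Foxp3- cells, and no KO fold is given because the KO Foxp3- mean lies at background. Lamc1, a laminin chain of basement membranes, was not well above background on either WT Foxp3- array, and was 2.17-fold higher in KO and at least 2.58-fold higher in WT Foxp3+ cells. Inpp5f, a phosphatase of inositol lipids, had log2 differences between fractions of 1.47 in KO and 1.35 in WT cells.

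Gm5796 is a predicted gene, and whether its probe also reads similar sequences of other genes was not checked, so the signal may not be of this gene alone. It read 12.47 and 12.22 on KO Foxp3+, 12.08 and 12.01 on WT Foxp3+, 10.12 and 10.14 on KO Foxp3- and 10.33 and 10.27 on WT Foxp3- arrays. Its genotypes did not overlap in either fraction, and at 0.2999 in Foxp3+ cells it was the member nearest to that limit. The difference between fractions was 2.21 in KO and 1.75 in WT cells.

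A further 20 named genes had WT differences of the authors' values from 1.01 to 1.30, and are named for completeness. Signalling and regulation were represented by the transcription factor Irf5, the kinase Irak2 of Toll-like and interleukin 1 receptor signalling, the guanylate cyclase subunit Gucy1a1, the phosphatase Ppm1l, the protease Tasp1 and the ubiquitin ligase Trim59. Membrane, transport and enzyme genes were Snx18, a sorting nexin, Atp6v0a1, a proton pump subunit, Slc15a3, a peptide transporter, Xxylt1, a xylosyltransferase, Pafah1b3, a subunit of a lipid hydrolase, Reep3, Tmem51, Tmem65 and Ncmap. The rest were Niban1, Csrp2, Epb41l3, Sh3bgrl and Wfdc2. Slc15a3, Epb41l3, Wfdc2 and Tmem51 were undetected on both WT Foxp3- arrays, and their WT folds were at least 1.95, 1.91, 2.02 and 1.97. Of the 3 probes with no gene, one was not well above background on any Foxp3- array and was at least 3.97-fold higher in KO and at least 3.44-fold higher in WT Foxp3+ cells. Another was detected on all 8 arrays, with differences between fractions of 1.10 in KO and 1.21 in WT cells. The last, which neither WT Foxp3- array detected, was 1.59-fold higher in KO and at least 2.07-fold higher in WT Foxp3+ cells.

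Several members are known from cells other than T cells. C1qb and C1qc encode chains of complement C1q, made mainly by macrophages, and were among the 5 probes with the largest WT differences. C1qb read 8.54 and 8.81 on KO Foxp3+, 8.69 and 8.88 on WT Foxp3+, 6.96 and 7.08 on KO Foxp3- and 6.75 and 6.76 on WT Foxp3- arrays. C1qc read 8.48 and 8.59 on KO Foxp3+, 8.70 and 8.87 on WT Foxp3+, 6.99 and 7.03 on KO Foxp3- and 6.81 and 6.80 on WT Foxp3- arrays. Both were detected on both KO Foxp3- arrays and on neither WT Foxp3- array, so the WT folds are bounds: at least 3.65-fold for C1qb and for C1qc.

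Adgre1, an adhesion receptor that marks macrophages, Itgad, the integrin alpha D chain, and Spic, a transcription factor of red pulp macrophages, were not well above background on any Foxp3- array. Adgre1 read 7.72 and 7.90 on KO Foxp3+ and 8.09 and 8.04 on WT Foxp3+ arrays. Itgad read 7.55 and 7.97 on KO Foxp3+ and 7.88 and 8.02 on WT Foxp3+ arrays, and Spic read 7.5 and 7.85 on KO Foxp3+ and 7.83 and 7.99 on WT Foxp3+ arrays. The KO arrays were below the WT arrays for Adgre1, and the genotypes overlapped for Itgad and Spic. The folds between fractions were at least 1.84 in KO and 2.21 in WT for Adgre1, 1.78 in KO and 2.05 in WT for Itgad, and 1.68 in KO and 1.99 in WT for Spic.

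Cd74, the invariant chain of MHC class II molecules, read 11.42 and 10.47 on KO Foxp3+, 11.15 and 11.27 on WT Foxp3+, 8.85 and 8.81 on KO Foxp3- and 8.75 and 8.70 on WT Foxp3- arrays. The KO Foxp3+ arrays lay on either side of the WT ones and differed by more than any other replicate pair of a member, with an SD of 0.67. Cd79b, a chain of the B cell receptor complex, read 8.05 and 7.66 on KO Foxp3+, 7.94 and 8.22 on WT Foxp3+, 6.98 and 6.93 on KO Foxp3- and 6.90 on both WT Foxp3- arrays. Slc4a1, the anion exchanger of red blood cells, read 8.27 and 8.84 on KO Foxp3+, 8.66 and 8.82 on WT Foxp3+, 6.99 and 7.04 on KO Foxp3- and 6.86 and 6.77 on WT Foxp3- arrays. Cd79b and Slc4a1 were detected on both KO Foxp3- arrays and on neither WT Foxp3- array.

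Genes of marker lists for such cells also differed between the fractions. Of 15 macrophage genes tested, a list written after values had been seen and holding 5 member genes, 15 were higher in Foxp3+ cells of KO and of WT mice by limma. Over all probes tested 12.1% were called higher in KO and 14.7% in WT Foxp3+ cells. The list was written with values known, so its count is a description and no test. The summed linear signal of the list was 4712 and 5691 on KO Foxp3+, 7042 and 7901 on WT Foxp3+, 2101 and 2159 on KO Foxp3- and 1983 and 1912 on WT Foxp3- arrays. Of 4 myeloid and dendritic genes tested, which hold no member, 2 were higher in KO and 4 in WT Foxp3+ cells. Their summed signal was 1460 to 1950 on KO Foxp3+, 3638 to 3870 on WT Foxp3+, 674 to 683 on KO Foxp3- and 514 on both WT Foxp3- arrays.

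On both sums each KO Foxp3+ array was below each WT Foxp3+ array, and each KO Foxp3- array above each WT Foxp3- array. Lyz2, the lysozyme of macrophages and granulocytes, read 8.95 and 9.25 on KO Foxp3+, 10.86 and 11.01 on WT Foxp3+, 7.45 and 7.38 on KO Foxp3- and 7.01 and 6.90 on WT Foxp3- arrays, a KO minus WT difference of -1.83 in Foxp3+ cells. The 2 B cell markers tested, Cd79a and Cd79b, summed to 1223 and 663 on KO Foxp3+, 791 and 756 on WT Foxp3+, 284 and 340 on KO Foxp3- and 276 and 269 on WT Foxp3- arrays. The first KO Foxp3+ array was the highest of the 8 on that sum, and was also the higher KO Foxp3+ array for Cd74. The erythroid marker tested, Alas2, read 7.56 and 7.99 on KO Foxp3+, 7.40 and 7.45 on WT Foxp3+, 6.98 and 7.09 on KO Foxp3- and 6.82 and 6.75 on WT Foxp3- arrays. The part of other cell types in the members' values was not tested, and in bulk RNA fewer cells of a type and less RNA per cell cannot be told apart.

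**Figure D3:**
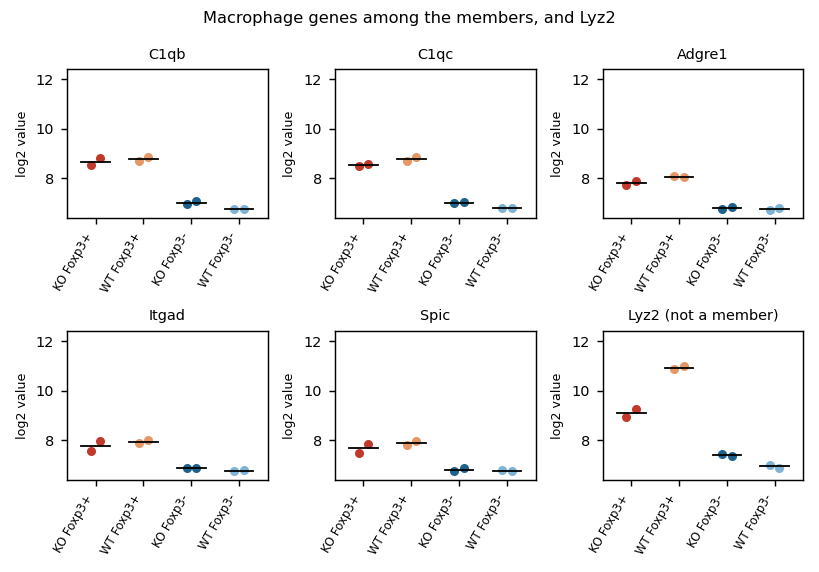
Points are the 2 arrays of each group and lines their mean, on the authors' log2 scale, for 5 members known from macrophages and for Lyz2, which is not a member. Groups run KO Foxp3+, WT Foxp3+, KO Foxp3-, WT Foxp3-. KO and WT Foxp3+ arrays lie close for the members, as the rule required of their means. Lyz2, outside the rule, reads 8.95 and 9.25 on KO Foxp3+ against 10.86 and 11.01 on WT Foxp3+ arrays. Over the 15 macrophage genes tested the median KO minus WT difference in Foxp3+ cells was -0.40 after background correction.

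The limits of the rule cut through a continuous spread, which the plot of genotype differences shows. Just inside the limit on the WT difference were Ncmap at 1.01, Pafah1b3 at 1.02 and Slc15a3 at 1.04, and just outside it Mmd at 0.997, Gm3696 at 0.98 and Naip5 at 0.97. On the KO minus WT value in Foxp3+ cells, Gm5796 at 0.2999, Slc15a3 at -0.29 and Ncmap at 0.28 were inside, and Apoe at -0.31, Gjb2 at -0.31 and Ikzf2 at 0.32 were outside. In Foxp3- cells, Bid at 0.28, Reep3 at 0.28 and C1qb at 0.27 were inside, and Ebi3 at 0.304 and a further Cd79b probe at 0.306 were outside. Foxp3 itself stayed out through its KO minus WT difference of -0.38 in Foxp3+ cells, with its Foxp3- arrays at background.

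**Figure D4:**
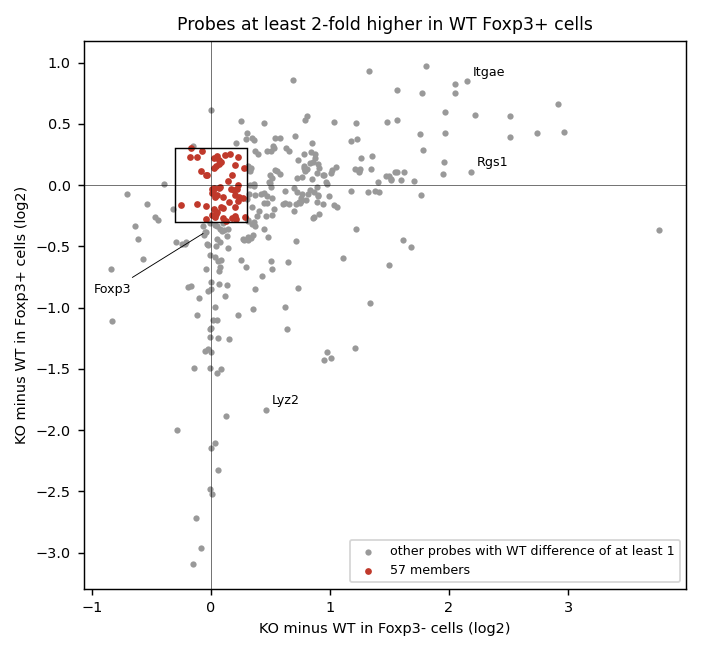
Each point is a probe with a WT Foxp3+ minus WT Foxp3- difference of at least 1, placed by its KO minus WT difference in Foxp3- cells (x axis) and in Foxp3+ cells (y axis), on the authors' log2 scale. The box marks the limit of 0.3 and holds the 57 members in red, with the other 269 probes in grey. Grey points extend to the right of the box and below it, with Foxp3 among those below it.

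Of the other 269 probes with a WT difference of at least 1, 117 were above the limit in KO Foxp3- cells only, 70 were below it in KO Foxp3+ cells only, 30 did both, and 52 had another pattern. WT differences of 2 or more were held by 7.02% of the members and 28.3% of the other 269. The median WT difference was 1.24 for the members and 1.52 for the others, and the median KO difference was 1.24 for the members and 0.78 for the others, which the rule itself sets apart. All 8 arrays detected 64.9% of the members and 77.0% of the others. These shares are descriptions with no test.

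Detection limits what the small genotype differences can show. All 57 members were detected on all 4 Foxp3+ arrays, 37 on all 8 arrays, 12 on 1 to 3 Foxp3- arrays and 8 on no Foxp3- array. On both KO Foxp3- arrays 8 were undetected, and on both WT Foxp3- arrays 17. The processed values carry no background subtraction, so a change in a dim probe is damped. After background correction with neqc, all 57 kept a WT difference of at least 1, but only 29 stayed within 0.3 of 0 in both fractions. Of the 31 members with a WT Foxp3- mean below 7.5 that count was 10, and of the 26 at 7.5 or more it was 19. The limit of 0.3 behind the label of probes unaffected by loss of E2A and HEB was therefore met on the authors' scale by choice. On the corrected scale 29 of the 57 met it. A mean within that limit does not show that a probe is unaffected.

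**Figure D5:**
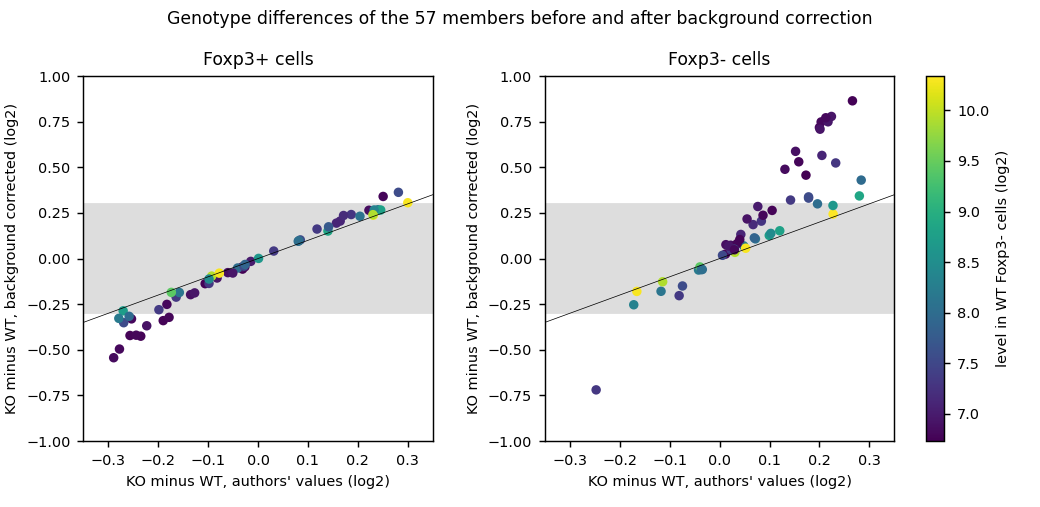
Each point is a member, with its KO minus WT difference on the authors' log2 scale (x axis) and after background correction (y axis), in Foxp3+ cells on the left and in Foxp3- cells on the right. Colour gives the WT Foxp3- mean on the authors' log2 scale, the grey band marks 0.3 on either side of 0 and the line marks equal values. In Foxp3- cells dark points, those near background, reach 0.86 after correction.

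On the corrected values KO minus WT differences of the members ran from -0.54 to 0.36 in Foxp3+ cells, with a median of -0.06, and from -0.72 to 0.86 in Foxp3- cells, with a median of 0.14. The highest in Foxp3- cells was C1qb, undetected on the WT Foxp3- arrays, and the lowest was Gsta4, detected on all 8 arrays. In limma with Benjamini-Hochberg adjustment over 13526 probes, 0 members passed an adjusted p of 0.05 in Foxp3+ cells, where 3.87% of all probes tested did. At an unadjusted p under 0.05 there were 10, and on the authors' values 1 passed the adjusted threshold. In Foxp3- cells 9 members passed, all higher in KO: Ptger2, Niban1, Mt1, C1qb, Irf5, C1qc, Lamc1, Bid and a probe with no gene. Of all 13526 probes tested in these cells, 21.2% passed in either direction, and 1396 passed as higher in KO. Leaving out 1 array changed the calls of members and also those over all probes, and such fits rest on 1 array in a group. The rule used both contrasts, so these counts are read no further.

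A count of 0 calls does not show equal levels. The 95% interval of a KO minus WT difference had a median half-width of 0.33 over the members. It lay wholly within 0.5 of 0 for 24 members in Foxp3+ cells and for 27 in Foxp3- cells, and within 1 of 0 for 55 in Foxp3+ cells and 47 in Foxp3- cells. A 2-fold genotype difference thus lay outside the interval for most members in either fraction, while one of 0.5 lay within it for the members not counted at that width.

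Between fractions all 57 members were called higher in Foxp3+ cells of both genotypes, where 12.1% of probes tested in KO and 14.7% in WT cells were called higher. The limits of the rule, applied to the same arrays, largely fixed this count in advance, so it is no result about the members. The corrected difference had a median of 2.05 in KO and 2.12 in WT cells. The interaction, how far the KO minus WT value of Foxp3+ cells exceeds that of Foxp3- cells, was called for 3 members, where 5.29% of all probes tested were called: Ptger2, C1qc and Bid, each with the smaller difference between fractions in KO cells. That count changed when 1 array was left out, as did the count over all probes, and such fits rest on 1 array in a group.

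The arrays of a group can be set against each other for the rule itself. In KO Foxp3+ cells 16 members differed by more than 0.3 between the 2 arrays, the width that the rule allows between genotypes, and in WT Foxp3+ cells 2 did, with 0 in either Foxp3- group. Applied to the first array of each group alone, the rule picked 61 probes. On the second arrays 54 of these had a WT difference of at least 1, 52 stayed within 0.3 in Foxp3- cells, 39 in Foxp3+ cells, and 25 met all limits. The 57 picked on the second arrays gave 48, 48, 35 and 25 on the first. Of the 3 limits, that on Foxp3+ cells was met by the fewest probes both times.

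Other probes of the member genes gave a further reading of the same RNA. There were 24 such probes for 19 genes. Of these 22 had a WT difference above 0, and the 7 detected on all 8 arrays all had one of at least 0.3. Only 3 reached 1: Cd79b at 2.07, Cd74 at 2.53 and Irak2 at 1.24. A second Pim1 probe, detected on 6 arrays of 8, had a difference of 0.06 in KO and 0.07 in WT cells. It thus did not repeat the member's difference, but it read 6.90 to 7.11 throughout and may be too near background to show one. A second Bid probe had 0.04 in KO and -0.04 in WT cells, but it was detected on 1 array of 8 and shows nothing of the fractions. The second Cd74 probe read a KO minus WT difference of -0.44 in Foxp3+ cells, against -0.27 for the member.

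The members held 5 of the 35 regulatory T cell genes tested: Il2ra, Tnfrsf18, Izumo1r, Rgs16 and Ptger2. Over the 35 genes 31 were higher and 1 lower in Foxp3+ cells of KO mice, and 31 were higher and 2 lower in those of WT mice. Between genotypes 0 were higher and 2 lower in KO Foxp3+ cells, and 16 higher and 7 lower in KO Foxp3- cells. Over all 13526 probes tested, 199 were higher and 324 lower in KO Foxp3+ cells, and 1396 higher and 1469 lower in KO Foxp3- cells. The median KO minus WT difference of the 35 genes was -0.08 in Foxp3+ cells, against 0.01 over all probes tested, and 0.29 in Foxp3- cells, against -0.01 over all probes tested.

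By their brightest probe, 29 of the 35 genes had a WT difference of at least 1, and the 5 member genes were those within 0.3 in both fractions. A further 11, among them Nrp1, Nt5e and Rgs1, were above the limit in KO Foxp3- cells only, with KO minus WT differences there of 1.49, 1.62 and 2.18. Foxp3, Ecm1, Klrg1, Dusp4 and Samsn1 were below it in KO Foxp3+ cells only. Of these, limma called Ecm1 (adjusted p = 0.00353) and Klrg1 (adjusted p = 0.0165) lower there. It did not call Foxp3 (adjusted p = 0.294), Dusp4 (adjusted p = 0.182) or Samsn1 (adjusted p = 0.149). Dusp4, at -0.294 in Foxp3- cells, was close to the limit there too, and limma called it lower in those cells (adjusted p = 0.0174). Gpr83, Ikzf4 and Swap70 were below the limit in KO Foxp3- cells only, and Ikzf2 was above it in KO Foxp3+ cells only. Ctla4, Itgae, Tnfrsf4 and Tnfrsf9 passed the limit in both fractions.

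Other lists held fewer members. Of 19 interleukin 2 and STAT5 genes tested, which include Il2ra, Pim1 and Gfi1, 8 were higher and 1 lower in KO Foxp3+ than in KO Foxp3- cells, and 12 were higher and 1 lower in WT. Of 33 genes of the TNF receptor family and NF-kB pathway, with Tnfrsf18 as the member, 14 were higher and 4 lower in KO and 21 higher and 3 lower in WT. Of 31 genes induced by T cell receptor signals, with Gadd45b as the member, 11 were higher and 4 lower in KO and 15 higher and 5 lower in WT. Of 18 apoptosis genes, with Bid as the member, 6 were higher and 2 lower in KO and 4 higher and 2 lower in WT. None of the 22 genes tested of E proteins, Id proteins and thymocyte stages was a member, and of these 0 were higher and 8 lower in KO Foxp3+ cells and 0 higher and 11 lower in WT Foxp3+ cells. Over all 13526 probes tested, 1642 were higher and 1619 lower in KO Foxp3+ cells, and 1983 higher and 2246 lower in WT Foxp3+ cells.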

How the data were processed

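RNA of 4 groups of sorted thymocytes, 2 arrays each, was hybridised to an Illumina mouse bead array. For each array the authors deposited linear intensities of all probes, before any normalization between arrays, each with a detection p-value. Their deposited processed table gives log2 values of 14942 probes, which were rebuilt to within 0.000675 by taking log2 of the intensities, with no background subtraction, and quantile normalizing. The submitters' processing notes name GenomeStudio 2011.1, with settings not given in the sources used. Probes were named from the platform annotation: 14017 had 1 gene, 0 several and 925 none, and 14010 were found in RefSeq by gene identifier.

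The rule ran on the processed log2 values. For calls, the 25697 probes' intensities were background corrected and quantile normalized as in neqc (limma 3.58.1, R 4.3.3, offset 16, negative controls inferred from the detection p-values), and 13526 probes were kept, those detected at p under 0.05 on 2 or more arrays. All 8 arrays entered 1 linear model of the 4 group means, by lmFit and eBayes (4 residual degrees of freedom), with Benjamini-Hochberg adjustment over all probes tested and a threshold of 0.05. All tests were two-sided. The fit was tested on simulated data. An exact permutation test of 2 against 2 arrays cannot go below 0.333 and was not used. All arrays share a chip number, and the letters after it run A to D for WT and E to H for KO arrays. The 2 arrays of a group have adjacent letters, so any effect of place on the chip cannot be told apart from group. A list counts each gene by its brightest probe.

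The members and gene lists were chosen with earlier results of these data known, and the macrophage list after values had been seen. Named genes were the 20 with the largest WT difference, members of the lists, the 5 with the highest WT Foxp3+ signal, and the probes next to each limit; others are named for completeness. Alternatives changed the normalization, the limits, the filter, the variance model, the replicate block and the arrays included.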

Additional observations from a re-analysis of the deposited data

Results flagged for a closer look

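For 3 members the KO minus WT value in Foxp3+ cells differed from that in Foxp3- cells by limma's interaction test over 13526 probes, of which 5.29% were called, so the count of members called is near that background and is no result about the members as a set. On the background-corrected log2 scale the interaction was -1.08 for C1qc (adjusted p = 0.0113 by limma), -0.75 for Bid (adjusted p = 0.0272) and -0.97 for Ptger2 (adjusted p = 0.0338). Each KO Foxp3- array was above each WT Foxp3- array for all 3 genes. The rule chose the members on the same arrays, so these values are descriptions. All 3 calls were lost in some fits that left out 1 array, where the calls over all probes fell as well. For C1qc no WT Foxp3- array was above background. C1qc is part of the macrophage list, which was written after values had been seen and was higher in Foxp3+ cells of both genotypes.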

How the results depend on the processing

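The rule picked 57 probes. It picked 106 on background-corrected values, 27 with a limit of 0.2 between genotypes, 127 with a limit of 0.5 and 12 with a WT difference of at least 1.5. Leaving out 1 array gave 54 to 61 probes, with 44 to 56 of the members among them. Median scaling gave 50 and cyclic loess 66, with 49 and 56 members among them. Over the alternatives to the fit that kept both arrays of every group compared, all 57 members were called higher in Foxp3+ cells of each genotype. The rule largely fixed that count in advance. For KO against WT in Foxp3+ cells 0 were called, 1 on the authors' values, and 0 to 3 when leaving out 1 array. For KO against WT in Foxp3- cells 9 were called, 16 with array weights, 3 on the authors' values, 14 with only the arrays compared, 15 with a variance trend, and 2 to 13 when leaving out 1 array. In the interaction 3 were called, 7 with cyclic loess, 6 with a variance trend and 0 to 7 when leaving out 1 array. Over all probes tested the Foxp3- calls were 2865, and 3934 with array weights, 3450 on the authors' values, 3391 with only the arrays compared and 3519 with a variance trend. The interaction calls were 715 over all probes, 780 with cyclic loess and 1093 with a variance trend. For Foxp3+ cells they were 523, and 981 on the authors' values. The cause of these changes was not tested. Among single called members, 103 recomputed values kept their call in Foxp3- cells and 41 lost it, as did 27 and 18 in the interaction, and none changed direction.

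Same-numbered arrays did not deviate together (correlations from -0.029 to 0.0998), so the numbers were not taken as pairs. With the replicate number as a block, the calls of members were 0 for KO against WT in Foxp3+ cells and 9 in Foxp3- cells. They were 4 in the interaction and 57 between fractions in each genotype. Over all probes tested these calls were 420 in Foxp3+ cells, 2610 in Foxp3- cells and 607 in the interaction. Between fractions they were 3061 in KO and 4003 in WT cells. As a replicate block for the rule, 61 probes met it on the arrays numbered 1, 57 on those numbered 2, and 25 on both.

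With 2 arrays per group, dim probes limit what can be said: 20 of the 57 members were not detected on every array, and the processed values damp differences near background.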
